A study of Mus musculus with 12 samples.

Results

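A set of 10 genes that macrophages of the spleen are known for was followed across 12 arrays of splenic lymphocytes. They are Slc40a1, Hmox1, Csf1r, Adgre1, Vcam1, C1qa, C1qb, C1qc, Lyz2 and Mpeg1, 10 of the 19937 genes measured, and each was read from 1 probe set with no filter on dim values. The genes were selected on their measured levels in these same 12 arrays, so their own levels and differences are given as a description, with no test. All groups came from C57Bl/6 x FVB mice, with no other allele or transgene named. The sample records give the labelled resting B group as magnetically sorted CD43 negative spleen B cells of day 0. They give the labelled resting T group as B220 negative spleen T cells of day 0. By the same records the labelled activated B group had spent 4 days in culture with aCD40 and IL4, and the labelled activated T group 4 days with aCD3, aCD28 and IL2. Each group had 3 arrays, with replicate numbers 1 to 3 for the labelled B cells and 4 to 6 for the labelled T cells, and values of a group are listed here in the order of those numbers. No source states that separate mice stand behind the arrays, and the errors and p-values measure only how far these arrays spread.

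The lineage genes went against the labels. T cell markers (12 genes) averaged between 9.87 and 9.99 log2 per array in the labelled resting B group and between 9.52 and 9.69 in the labelled activated B group, but only between 5.20 and 5.66 in the labelled resting T group and between 5.46 and 6.29 in the labelled activated T group. B cell markers (11 genes) averaged 6.94 to 8.36, 4.73 to 5.08, 9.15 to 9.53 and 11.1 to 11.3 in the same order of groups. Markers of dividing cells (9 genes) averaged 5.65 to 6.03, 9.81 to 9.87, 9.31 to 9.40 and 5.31 to 6.01, so that they were lower in the labelled activated T than in the labelled resting T arrays. For this reason the groups are called labelled throughout, and every direction is that of the labels. The levels are RMA values on the log2 scale, and 5.21 log2, the 95th percentile of 1027 olfactory receptor genes, is used as the background level.

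Macrophages of the splenic red pulp clear old red cells and return their iron to the blood. They take up the cells, open the heme ring with heme oxygenase and let the iron out through ferroportin, and the transcription factor Spi-C directs their development. They depend on signals through the CSF1 receptor, make the complement component C1q, and carry F4/80 and VCAM1 on their surface. In preparations of lymphocytes they are a minor cell type, and in bulk RNA fewer cells of a type and less RNA per cell cannot be told apart.

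Within the group of 10, the C1q genes lie side by side within 18719 bases of chromosome 4 and had nearly the same pattern over the arrays, whereas Lyz2 and Mpeg1 departed from the others. The 250 bases before the RefSeq start of these genes (build GRCm38.p6, strand of the gene) are shown for that reason, with the letters ACTTCCT, the reverse complement of AGGAAGT, in capitals. The C1qc window is an exception, since it begins at base 136892915, within the RefSeq span of the gene, which ends at base 136892936. AGGAAGT holds the GGAA core to which factors of the ETS family such as PU.1 bind. RefSeq promoter sequences were at hand for 4 of the 10 genes.
C1qb, chr4:136886201-136886450, minus strand: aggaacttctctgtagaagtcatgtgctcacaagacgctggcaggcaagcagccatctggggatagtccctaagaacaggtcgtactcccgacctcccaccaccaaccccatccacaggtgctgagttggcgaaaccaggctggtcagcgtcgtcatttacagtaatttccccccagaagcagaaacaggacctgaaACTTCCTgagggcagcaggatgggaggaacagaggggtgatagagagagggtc
C1qc, chr4:136892915-136893164, minus strand: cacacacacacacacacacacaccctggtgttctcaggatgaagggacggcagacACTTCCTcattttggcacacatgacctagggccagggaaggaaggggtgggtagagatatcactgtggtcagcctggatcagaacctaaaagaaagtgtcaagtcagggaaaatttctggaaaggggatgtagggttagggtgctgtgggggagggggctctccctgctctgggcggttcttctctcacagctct
Lyz2, chr10:117282273-117282522, minus strand: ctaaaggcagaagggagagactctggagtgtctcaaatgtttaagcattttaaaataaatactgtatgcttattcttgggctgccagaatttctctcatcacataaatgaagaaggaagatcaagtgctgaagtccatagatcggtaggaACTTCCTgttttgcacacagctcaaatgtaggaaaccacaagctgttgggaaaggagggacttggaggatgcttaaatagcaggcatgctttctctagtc
Mpeg1, chr19:12460520-12460769, plus strand: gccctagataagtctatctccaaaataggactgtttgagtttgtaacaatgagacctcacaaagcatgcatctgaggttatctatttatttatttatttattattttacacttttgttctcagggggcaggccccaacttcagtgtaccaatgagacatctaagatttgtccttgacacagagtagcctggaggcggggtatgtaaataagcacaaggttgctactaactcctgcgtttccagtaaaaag
The letters stood 47 to 53 bases before the start of C1qb and 94 to 100 bases before that of Lyz2. In the C1qc window they stood at bases 189 to 195, counted from its downstream end. They were on neither strand of the Mpeg1 window. On either strand, 7.69% of 32851 RefSeq promoter windows of the same length held them. TGCTGA, a part of the sequence that Maf factors recognize, was found in the windows of C1qb and Lyz2 and in 16.1% of all windows. Both motifs were chosen after the sequences and levels were seen, and a match describes letters and not a bound site.

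Most of the 10 genes were high in the labelled resting B and labelled activated T arrays and low in the other groups. All 10 were lower in the labelled activated B arrays than in the labelled resting B arrays with no overlap between arrays, where 22.6% of all genes were lower without overlap. 8 genes, all but Mpeg1 and Adgre1, were higher in the labelled activated T arrays than in the labelled resting T arrays without overlap, against 21.2% of all genes. By the labels alone, the name of genes lost in culture that these genes were given describes the labelled B groups. In the labelled T groups the levels ran the other way. So did the markers of dividing cells, at 9.31 to 9.40 log2 in the labelled resting T and 5.31 to 6.01 in the labelled activated T arrays. The median difference over the 10 genes was -2.30 log2 in the labelled B groups and 1.32 log2 in the labelled T groups, beside medians of -0.02 and 0.02 over all genes. The order of the group means was labelled resting B, activated T, resting T and activated B for 8 of the 10 genes. The exceptions were Mpeg1, with labelled activated T and then labelled resting T on top, and Hmox1, whose lower groups were the other way round.

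**Figure D1:**
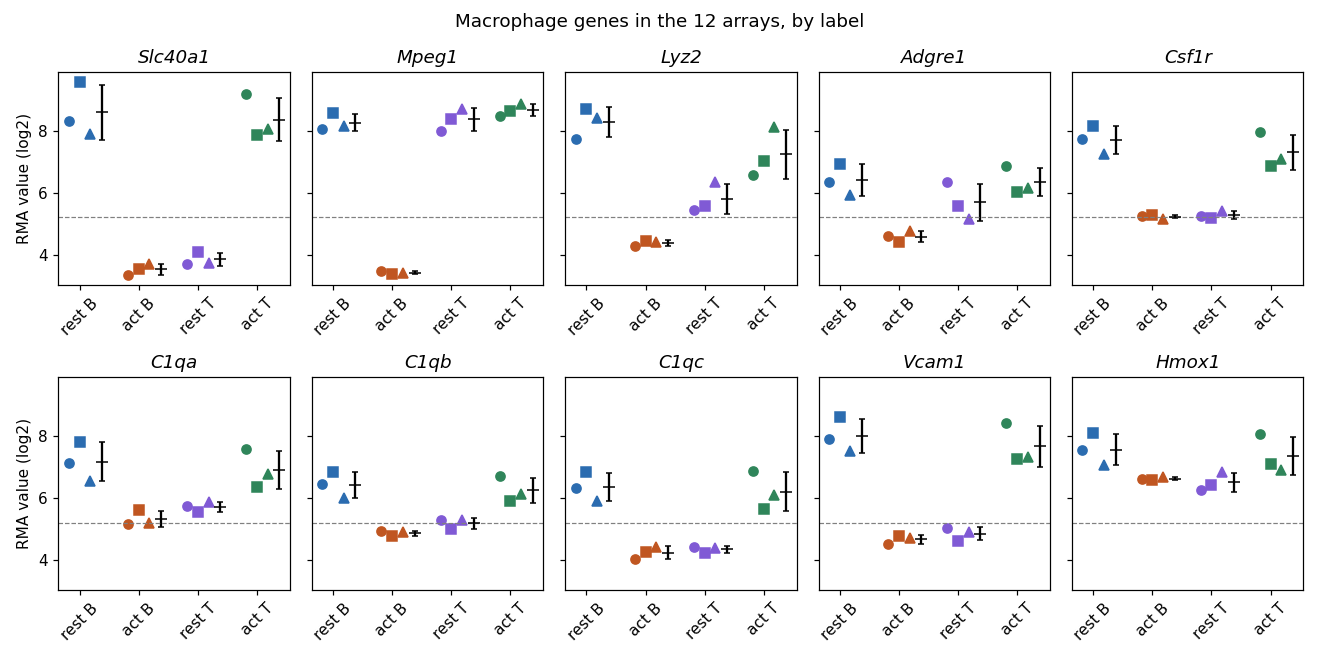
RMA values (log2, vertical axis) of the 10 macrophage genes in each array, by labelled group (rest, resting; act, activated). Symbols are arrays (circle, square and triangle for replicates 1, 2 and 3 or 4, 5 and 6), the black bar is the group mean with its SD (n = 3), and the dashed line is the background level of 5.21. Slc40a1 lies between 7.85 and 9.59 in the labelled resting B and activated T arrays and between 3.34 and 4.09 in the others, and Mpeg1 is low in the labelled activated B arrays alone.

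Slc40a1 encodes ferroportin, the transporter through which iron leaves the cell. It stood at 8.32, 9.59 and 7.90 log2 in the labelled resting B arrays and at 9.18, 7.85 and 8.07 in the labelled activated T arrays. In the labelled activated B arrays it was at 3.34, 3.55 and 3.71 and in the labelled resting T arrays at 3.72, 4.09 and 3.75. All 6 arrays of the former groups were thus far above the background and all 6 of the latter below it. The mean was 8.60 ± 0.88 (SD, n = 3) in the labelled resting B group and 3.53 ± 0.19 in the labelled activated B group, a difference of -5.07 ± 0.35 log2 (SE). Since the lower group was below the background, this is given as at least 10.5-fold lower. The means were 8.37 ± 0.71 in the labelled activated T group and 3.85 ± 0.21 in the labelled resting T group, a level at least 8.92-fold higher in the former.

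Hmox1, the heme oxygenase that frees iron from heme, had the smallest differences of the 10 genes between activated and resting labelled B arrays. It was at 7.54, 8.09 and 7.07 log2 in the labelled resting B arrays and at 6.63, 6.59 and 6.68 in the labelled activated B arrays. In the labelled resting T arrays the values were 6.25, 6.42 and 6.86, and in the labelled activated T arrays 8.07, 7.11 and 6.92. No group fell to the background, and the highest labelled resting T array came within 0.1 log2 of the lowest labelled activated T array. The difference was -0.94 ± 0.26 log2 in the labelled B groups, or 1.91-fold lower. In the labelled T groups it was 0.85 ± 0.26 log2, and 0.50 without labelled activated T replicate 4.

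The receptor for CSF1, Csf1r, which macrophages need to survive, was at 7.72, 8.14 and 7.26 log2 in the labelled resting B arrays and at 5.24, 5.28 and 5.17 in the labelled activated B arrays. It was at 5.25, 5.20 and 5.43 in the labelled resting T arrays and at 7.95, 6.85 and 7.11 in the labelled activated T arrays. The low groups lay at the background level, with 2 of 3 arrays above it in each, and could not be separated from each other, with a difference of -0.06 ± 0.23 log2. The labelled activated B mean was 2.48 ± 0.23 log2 below the labelled resting B mean, a 5.57-fold difference, and the labelled activated T mean was 2.01 ± 0.23 log2 above the labelled resting T mean, or 4.04-fold.

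Vcam1, an adhesion molecule of red pulp macrophages that stromal and endothelial cells also carry, was at 7.91, 8.61 and 7.51 log2 in the labelled resting B arrays and at 8.44, 7.26 and 7.32 in the labelled activated T arrays. It was at 4.51, 4.77 and 4.73 in the labelled activated B arrays and at 5.03, 4.63 and 4.91 in the labelled resting T arrays, all below the background. Its level was at least 6.95-fold lower in the labelled activated B than in the labelled resting B group and at least 5.50-fold higher in the labelled activated T than in the labelled resting T group. Stromal and endothelial markers (12 genes) had array means from 5.24 to 5.6 log2 over all groups. Of these markers, 1 was called higher and 2 lower in the labelled activated B against resting B groups, beside 19.7% and 16.7% of all genes. In the labelled activated T against resting T groups 1 was called higher and 2 lower, beside 15.9% and 17.8% of all genes. Their part in the Vcam1 levels was not tested.

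Adgre1, which encodes the macrophage surface protein F4/80, separated the groups less well. It was at 6.35, 6.95 and 5.92 log2 in the labelled resting B arrays and at 6.85, 6.03 and 6.15 in the labelled activated T arrays. The labelled activated B arrays, at 4.60, 4.40 and 4.76, were below the background and at least 2.29-fold lower than the labelled resting B group. In the labelled resting T arrays the values of 6.35, 5.57 and 5.16 spread from above to below the background, and they overlapped those of the labelled activated T arrays, with a difference of 0.65 ± 0.28 log2. That difference was 0.39 without labelled resting T replicate 6, 0.40 without labelled activated T replicate 4 and 0.98 without labelled resting T replicate 4. Between arrays of the same number it was 0.51, 0.46 and 1.0 log2, higher in the labelled activated T array in each of 3 pairs.

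C1qa, C1qb and C1qc encode the chains of C1q, the recognition part of the first complement component. C1qc was at 6.31, 6.85 and 5.92 log2 in the labelled resting B arrays, at 6.87, 5.64 and 6.11 in the labelled activated T arrays, at 4.04, 4.26 and 4.43 in the labelled activated B arrays and at 4.43, 4.22 and 4.38 in the labelled resting T arrays. It was at least 2.22-fold lower in the labelled activated B group and at least 2.0-fold higher in the labelled activated T group than in the resting group of the same label. C1qb was at 6.46, 6.84 and 6.00 in the labelled resting B arrays and at 4.92, 4.78 and 4.89 in the labelled activated B arrays, at least 2.33-fold lower. C1qb was at 5.30, 4.99 and 5.29 in the labelled resting T arrays and at 6.70, 5.90 and 6.14 in the labelled activated T arrays, a difference of 1.05 ± 0.20 log2. C1qa followed with 7.15, 7.82 and 6.57 in the labelled resting B arrays, 5.15, 5.61 and 5.20 in the labelled activated B arrays, 5.74, 5.56 and 5.88 in the labelled resting T arrays and 7.58, 6.36 and 6.77 in the labelled activated T arrays. The labelled B difference of C1qa was -1.86 ± 0.28 log2 and the labelled T difference 1.18 ± 0.28. All 3 chains thus had their highest labelled resting B value in replicate 2 and their highest labelled activated T value in replicate 4.

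Lyz2, the lysozyme of macrophages, monocytes and neutrophils, stood between the patterns. It was at 7.74, 8.70 and 8.42 log2 in the labelled resting B arrays and at 4.28, 4.45 and 4.41 in the labelled activated B arrays, at least 8.43-fold lower. In the labelled resting T arrays it was at 5.45, 5.57 and 6.34, above the background, and in the labelled activated T arrays at 6.57, 7.03 and 8.13. The labelled activated T mean was 1.45 ± 0.32 log2 above the labelled resting T mean and 1.04 ± 0.32 log2 below the labelled resting B mean. The neighbouring gene Lyz1 is a near copy of Lyz2, with 249 identical bases in an alignment of the 300-base promoter windows, and how far RNA of each is seen by the probe set of the other is not known. The Lyz1 probe set had means of 6.07 ± 0.24, 4.98 ± 0.14, 5.31 ± 0.32 and 5.79 ± 0.20 log2 (SD, n = 3) in the labelled resting B, activated B, resting T and activated T groups, the same order as for Lyz2. Markers of neutrophils and monocytes (15 genes) had array means of 4.79 to 5.25, 4.70 to 4.74, 4.38 to 4.43 and 4.51 to 4.74 log2 in these groups. Of these 15 markers, 7 were called lower and 1 higher in the labelled activated B against resting B groups, beside 16.7% and 19.7% of all genes. In the labelled activated T against resting T groups 3 were called higher, beside 15.9% of all genes. Their part in the Lyz2 levels was not tested.

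Mpeg1, the pore-forming perforin-2 that macrophages turn on bacteria they have taken up, was high in every group but 1. It was at 8.05, 8.58 and 8.16 log2 in the labelled resting B arrays, at 7.99, 8.40 and 8.72 in the labelled resting T arrays and at 8.48, 8.66 and 8.86 in the labelled activated T arrays. In the labelled activated B arrays it was at 3.48, 3.37 and 3.43, at least 8.30-fold below the labelled resting B group. The high groups overlapped, with 0.30 ± 0.16 log2 between the labelled T groups, or 0.49, 0.26 and 0.15 between arrays of the same number. In the labelled resting T arrays Mpeg1 was thus as high as in the labelled resting B arrays (-0.10 ± 0.16 log2), while Slc40a1, Vcam1 and C1qc were below the background there. The B cell markers were also above their labelled activated B level in the labelled resting B, resting T and activated T arrays, and the part of B cells in the Mpeg1 level was not tested.

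**Figure D2:**
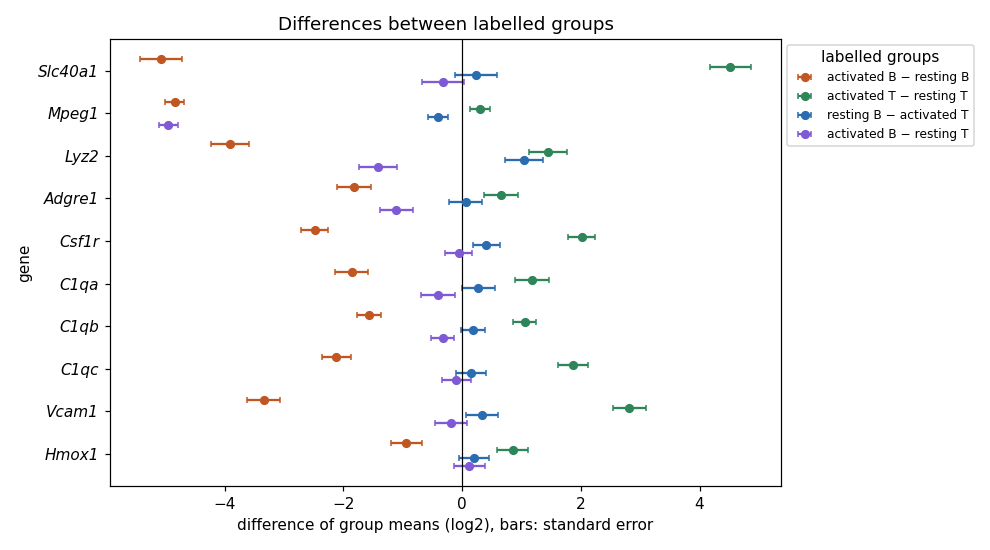
Difference of group means (horizontal axis, log2) of each of the 10 genes for 4 pairs of labelled groups, with the standard error from the fit as bars. The labelled B differences lie between -5.07 and -0.94, the labelled T differences between 0.30 and 4.51, and the differences between the labelled resting B and activated T groups between -0.40 and 1.04.

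Across the remaining pairs of groups, which share their arrays with those above, the genes followed the same order. Between the labelled resting B and resting T groups 8 genes were higher in the former without overlap (19.7% of all genes), with a median difference of 1.74 log2, and Mpeg1 and Adgre1 overlapped. Between the labelled activated B and activated T groups all 10 were lower in the former without overlap (25.6% of all genes), with a median of -2.02 log2. The arrays of the labelled resting B and activated T groups overlapped for all 10 genes, and the median difference was 0.22 log2. Leaving out 1 array at a time moved this last median between -0.05 and 0.58. Between the labelled activated B and resting T groups 5 genes (Slc40a1, Mpeg1, Lyz2, Adgre1 and C1qb) were lower in the former without overlap, against 16.3% of all genes, with a median of -0.32 log2. Slc40a1 was below the background in both of these groups.

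The arrays of a group differed from each other in a manner that most of the 10 genes shared. Among the labelled resting B arrays, replicate 2 was the highest for all 10 genes, with a median deviation of 0.50 log2 from the group mean, and replicate 3 was the lowest for 8. Over all genes, replicate 2 was the highest array for 30.9%. Among the labelled activated T arrays, replicate 4 was the highest for 8 genes with a median deviation of 0.66 log2, against 33.6% of all genes. Lyz2 and Mpeg1 were highest in replicate 6 there, and lowest in replicate 4. In the low groups no array was highest for more than 5 of the 10. The gap between replicates 2 and 3 of the labelled resting B group was 1.70 log2 for Slc40a1, 1.26 for C1qa and 1.10 for Vcam1, and 0.28 for Lyz2.

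**Figure D3:**
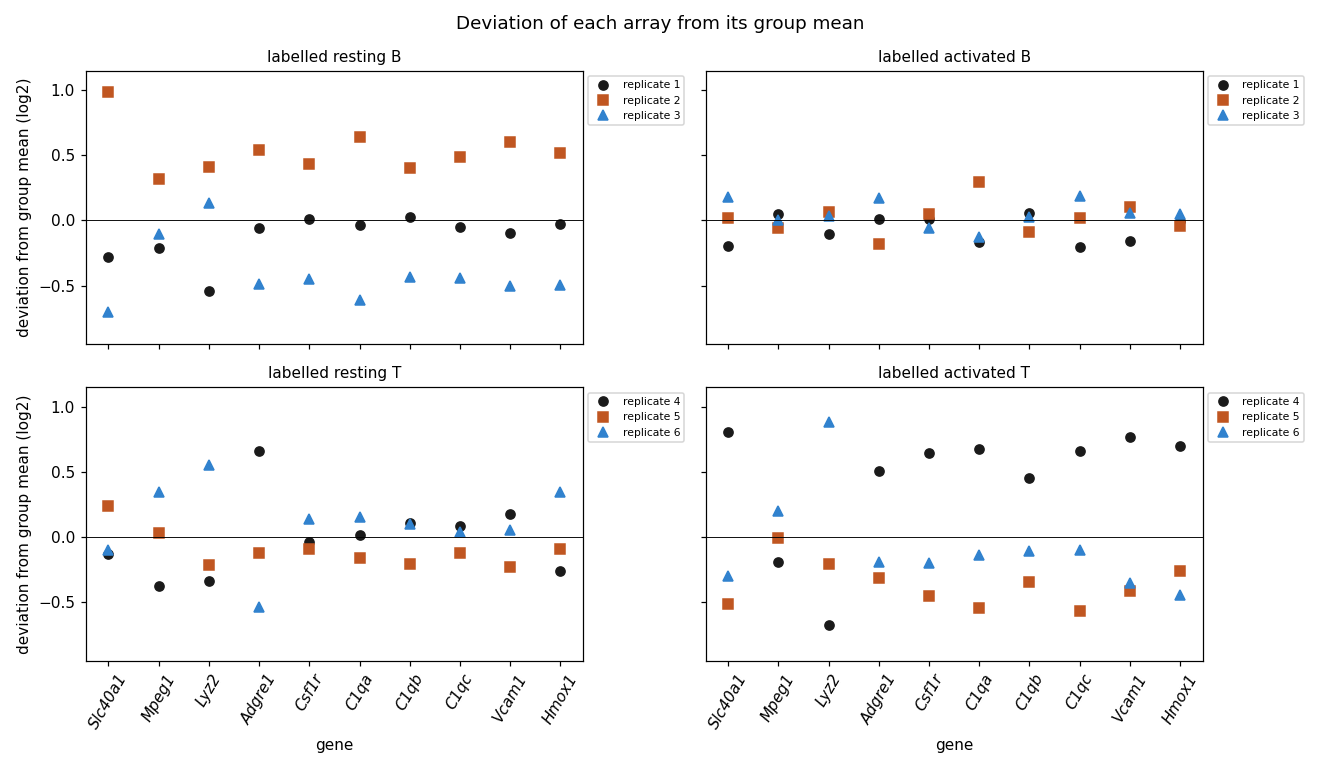
Deviation of each array from the mean of its labelled group (vertical axis, log2) for the 10 genes, 1 panel per group and 1 symbol per replicate. In the labelled resting B panel replicate 2 is above 0.32 for every gene, and in the labelled activated T panel replicate 4 is the highest for all but Lyz2 and Mpeg1.

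Over the 12 arrays, the deviations of Csf1r, C1qa, C1qb, C1qc, Vcam1 and Slc40a1 from their group means correlated with the mean deviation of the other 9 genes with r between 0.91 and 0.94, as a description over arrays that share their normalization. The value was 0.84 for Hmox1, 0.58 for Adgre1, 0.21 for Mpeg1 and -0.13 for Lyz2. Markers of other cells moved with these arrays as well. In the labelled resting B group all 11 B cell markers were highest in replicate 2, with array means of 6.94, 8.36 and 7.33 log2 for replicates 1, 2 and 3, and in the labelled activated T group 8 of the 11 were highest in replicate 4, where the array means were 11.3, 11.2 and 11.1. In replicate 6 of the labelled activated T group, in which Lyz2 and Mpeg1 peaked, all 8 natural killer cell markers and 11 of 12 T cell markers were highest. Whether these other cells have a part in the deviations was not tested. Without labelled resting B replicate 2 the median labelled B difference of the 10 genes was -2.07 log2, and without labelled activated T replicate 4 the median labelled T difference was 1.19.

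The list of further macrophage genes, of which 37 were measured, was tested with limma over all 19937 genes at an adjusted p under 0.05. This list and the others below were chosen with earlier results of these data known, so their calls and p-values are no independent test. Of the 37 genes, 23 were lower and 3 higher in the labelled activated B than in the labelled resting B group, where 16.7% of all genes were called lower and 19.7% higher. In the labelled activated T against resting T groups 20 were higher and 0 lower, against 15.9% and 17.8% of all genes. The medians over the list were -0.59 and 0.47 log2, and those over all genes -0.02 and 0.02. For 24 of the 37 the labelled B difference was below the labelled T difference by the interaction test and for 2, Maf and Cebpb, above it, against 20.9% and 21.9% of all genes. The interaction call of Cebpb (limma, adjusted p = 0.0409) was lost with centring on the 75th percentile (0.252), with quantile normalization (0.207) and without labelled resting B replicate 2 or 3, activated B replicate 1 or 3, resting T replicate 5 or 6, or activated T replicate 4 or 5 (at most 0.109). The labelled resting B and labelled activated T groups differed in 9 of the 37, with 4 higher and 5 lower in the former, beside 9.68% and 8.82% of all genes. In each of these groups 27 genes of the list had a mean above the background, beside 16 in the labelled activated B and 17 in the labelled resting T group.

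**Figure D4:**
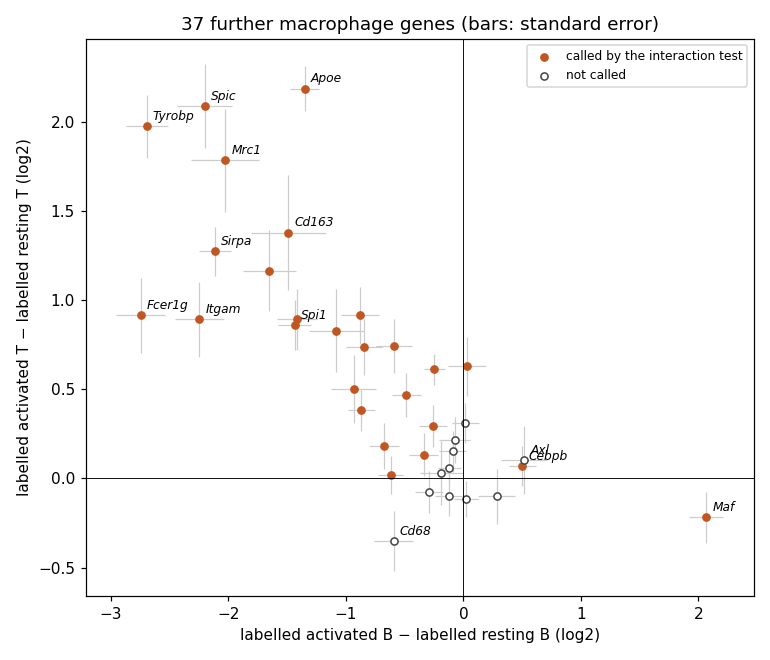
Difference between activated and resting arrays (log2) of 37 further macrophage genes in the labelled B groups (horizontal axis) and the labelled T groups (vertical axis), with standard errors as bars. Filled points are the 26 genes whose differences were called different from each other by the interaction test, and 24 of these have the lower value in the labelled B groups.

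Spic, the transcription factor of red pulp macrophages, had the pattern of the 10 genes. Its values were 6.00, 7.13 and 6.00 log2 in the labelled resting B arrays, 4.06, 4.32 and 4.14 in the labelled activated B arrays, 4.35, 4.49 and 4.44 in the labelled resting T arrays and 6.94, 6.27 and 6.32 in the labelled activated T arrays. Every array of its low groups was below the background, so that it fell at least 2.24-fold in the labelled B comparison (limma, adjusted p = 9.47e-07) and rose at least 2.47-fold in the labelled T comparison (adjusted p = 1.98e-06). The same held for the low groups of the following genes. Mrc1, the mannose receptor, fell at least 2.29-fold (adjusted p = 2.31e-05) and rose at least 2.08-fold (adjusted p = 9.47e-05). Cd163, the receptor for hemoglobin bound to haptoglobin, was at least 1.31-fold lower in the former comparison (adjusted p = 0.0012) and at least 1.2-fold higher in the latter (adjusted p = 0.00251). Its high groups were near the background too, with 2 of 3 labelled resting B arrays and 1 of 3 labelled activated T arrays above it. Mertk, a receptor for the uptake of dead cells that was picked after its values were seen, was at least 1.64-fold lower and at least 1.52-fold higher in these comparisons. Like most of the 10 genes, Spic, Mrc1, Cd163 and Mertk were highest in replicate 2 among the labelled resting B arrays and in replicate 4 among the labelled activated T arrays. Of all 37 further macrophage genes, 26 were highest in that labelled resting B array (30.9% of all genes). In the labelled activated T group 20 were highest in replicate 4 (33.6% of all genes) and 16 in replicate 6 (37.8%).

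Spic aside, the listed genes with the largest measured falls in the labelled B comparison were signalling and adhesion genes that other myeloid and natural killer cells also use. Fcer1g, an adaptor of Fc receptors, fell by 2.75 ± 0.21 log2 (limma, adjusted p = 1.57e-08), and Tyrobp, the adaptor DAP12, fell by 2.70 ± 0.18 (adjusted p = 2.95e-09). Itgam, the integrin chain CD11b, fell at least 3.05-fold to below the background (adjusted p = 2.22e-07), and Sirpa, the receptor of CD47, fell by 2.12 ± 0.14 (adjusted p = 2.29e-09). CD11b and CD43 were among the antigens by which the study's methods removed other cells from the B cells. The same genes rose in the labelled T comparison, Tyrobp by 1.98, Sirpa by 1.27, Fcer1g by 0.91 and Itgam by 0.89 log2, and 1 of 3 arrays was above the background in the labelled activated B group of Tyrobp and in the labelled resting T group of Itgam. Natural killer cell markers (8 genes) moved along, with 6 lower and 1 higher in the labelled B comparison, 5 higher and 2 lower in the labelled T comparison, and array means of 7.66 to 8.34, 6.30 to 6.73, 5.21 to 6.19 and 5.80 to 6.97 log2 in the labelled resting B, activated B, resting T and activated T groups. Over all genes, 16.7% were called lower and 19.7% higher in the labelled B comparison. In the labelled T comparison 15.9% were higher and 17.8% lower. The part of natural killer cells in these genes was not tested.

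Apoe, a lipid carrier made by macrophages, rose the most of the 37 in the labelled T comparison, by 2.19 ± 0.13 log2 (limma, adjusted p = 5.43e-10), and fell by 1.35 ± 0.13 in the labelled B comparison (adjusted p = 1.88e-07). The factor PU.1, encoded by Spi1 and shared by macrophages and B cells, was at means of 6.18, 4.74, 6.90 and 7.76 log2 in the labelled resting B, activated B, resting T and activated T groups, so that its labelled resting T level was above that of the labelled resting B group, unlike Spic. Cd68, a lysosomal protein of phagocytes, fell by 0.59 ± 0.17 in the labelled B comparison (adjusted p = 0.00888, and 0.0599 without labelled resting B replicate 2) and differed by -0.35 ± 0.17 in the labelled T comparison (adjusted p = 0.127, and 0.0364 with the replicate number as a block). Maf, a factor of macrophages and of T helper cells, rose by 2.07 ± 0.14 in the labelled B comparison (adjusted p = 5.48e-09). Cebpb and Axl were 0.50 and 0.52 log2 higher, and the call of Axl (limma, adjusted p = 0.0462) was lost without any 1 of the labelled activated B arrays and without labelled resting B replicate 1 or 3, where the adjusted p rose to at most 0.205. It was lost as well with the replicate number as a block (0.0584), a robust intensity trend (0.0681), centring on the 75th percentile (0.117) and quantile normalization (0.102). Marco, Siglec1 and Vsig4, markers of marginal zone, metallophilic and tissue-resident macrophages named here after their values were seen, had group means of 4.82 to 4.94, 5.20 to 5.35 and 3.31 to 3.43 log2, at or near the background in every group.

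Between the labelled resting B and labelled activated T groups, whose levels of the 10 genes overlapped, 4 further macrophage genes were higher in the former and 5 lower. The higher ones were Maf (1.01 log2), Fcer1g (0.94), Itgam (0.89) and Cx3cr1 (0.51, with limma's adjusted p of 0.00907 rising to 0.0582 without labelled resting B replicate 2), and the lower ones Lgmn (-2.03), Spi1 (-1.58), Pltp (-1.06), Apoe (-0.89) and Ms4a7 (-0.86), whose means of 3.38 and 4.25 log2 were below the background in both groups. Background calls in this pair were 9.68% of all genes higher and 8.82% lower. Between the labelled activated B and resting T groups 4 were higher and 9 lower, beside 13.0% and 9.93% of all genes, led by Maf at 2.86 log2 and Spi1 at -2.16.

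Of 23 measured genes of heme and iron handling, 10 were lower and 6 higher in the labelled activated B against resting B groups, and 8 were higher and 6 lower in the labelled activated T against resting T groups. The shares over all genes were 16.7% lower and 19.7% higher in the former comparison and 15.9% higher and 17.8% lower in the latter. Spic and Cd163 are on this list too. Trf, the iron carrier transferrin, was at 7.76, 8.51 and 7.44 log2 in the labelled resting B arrays, 5.99, 5.48 and 5.92 in the labelled activated B arrays, 5.74, 5.70 and 5.62 in the labelled resting T arrays and 7.93, 6.78 and 7.12 in the labelled activated T arrays. It fell by 2.11 ± 0.26 in the labelled B comparison (limma, adjusted p = 4.79e-06) and rose by 1.59 ± 0.26 in the labelled T comparison (adjusted p = 0.000104), with the array order of Slc40a1 in its high groups. Tfrc, Slc39a8, Slc39a14 and Slc48a1 ran opposite to it, whereas the iron importer Slc11a2, named after its values were seen, fell by 0.46 log2 in the labelled B comparison (adjusted p = 0.00126) and differed by 0.25 in the labelled T comparison (adjusted p = 0.0607). Tfrc, the transferrin receptor that dividing cells use to take up iron, rose by 2.55 ± 0.11 in the labelled B comparison (adjusted p = 1.09e-11) and fell by 1.71 ± 0.11 in the labelled T comparison (adjusted p = 1.54e-09). Slc39a8 and Slc39a14, metal importers, rose by 1.79 and 1.22 log2 and fell in the labelled T comparison, by at least 1.56-fold for Slc39a8, which ended below the background, and by 0.89 log2 for Slc39a14, and Slc48a1, the heme transporter HRG1, rose by 0.69 and fell by 1.81. Fth1, the heavy chain of the iron store ferritin, rose by 0.99 ± 0.09 in the labelled T comparison (adjusted p = 2.03e-07). Markers of red cells and their precursors (6 genes measured) had array means of 4.89 to 5.01 log2 in the labelled resting B and 4.67 to 4.80 in the labelled activated B group. In the labelled resting T and activated T groups the means were 4.59 to 4.71 and 4.77 to 5.31. Of these markers, 1 was called lower in the labelled B comparison and 1 higher in the labelled T comparison.

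Of 17 measured complement genes other than C1q, 9 were lower and 2 higher in the labelled activated B against resting B groups, and 6 were higher and 1 lower in the labelled activated T against resting T groups, beside 16.7% and 19.7% of all genes in the former and 15.9% and 17.8% in the latter. The leading genes were not those of macrophages alone. Cr2, the complement receptor CD21 of B cells, fell at least 6.13-fold to below the background (limma, adjusted p = 1.73e-07) and rose by 5.54 ± 0.33 log2 in these comparisons (adjusted p = 9.67e-10), and the complement inhibitor Cd55 fell by 2.52 and rose by 3.15. Cfp, the complement factor properdin, fell by 2.14 ± 0.14 in the labelled B comparison (adjusted p = 3.91e-09) and differed by 0.18 ± 0.14 in the labelled T comparison (adjusted p = 0.398). Its means of 7.70, 5.56, 8.08 and 8.26 log2 in the labelled resting B, activated B, resting T and activated T groups were ordered like those of Mpeg1 in having the labelled activated B group alone low. C6, a component of the membrane attack complex, had means of 5.32, 4.39, 4.44 and 5.16 log2 in these groups, only the first of them above the background, and its labelled T difference had adjusted p = 0.0148, which was 0.0724 without labelled resting T replicate 5 and 0.093 without labelled activated T replicate 4. All B cell markers (11 of 11) were lower in the labelled B comparison and 9 were higher in the labelled T comparison, Cr2 being one of them. The 10 others gave 10 lower and 8 higher, and their part in Cr2 and Cd55 was not tested.

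Of 15 measured genes around the CSF1 receptor, which include the adaptors Fcer1g and Tyrobp and the factors Spi1 and Cebpa of the macrophage list, 9 were lower and 1 higher in the labelled B comparison and 9 were higher and 3 lower in the labelled T comparison. Over all genes these shares were 16.7%, 19.7%, 15.9% and 17.8%. Csf1, the main ligand of the receptor, had a mean of 8.34 ± 0.26 log2 (SD, n = 3) in the labelled resting T group, where Csf1r was at the background, and between 5.20 and 5.79 in the others. It fell by 3.14 ± 0.14 in the labelled T comparison (limma, adjusted p = 3.36e-11). Fgr, a Src family kinase of myeloid cells and B cells, fell by 1.0 ± 0.13 in the labelled B comparison (adjusted p = 8.87e-06) and rose by 1.61 ± 0.13 in the labelled T comparison (adjusted p = 3.94e-08). Pik3cg, the gamma catalytic subunit of phosphoinositide 3-kinase, rose in both, by 0.82 and 3.06 log2.

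The remaining cell type lists gave the following counts in the labelled B comparison. Of 12 dendritic cell markers 9 were lower and 2 higher, of 8 platelet markers 7 lower and 1 higher, of 8 plasma cell markers 4 lower and 3 higher, and of 12 T cell markers 6 lower and 1 higher. In the labelled T comparison 6 dendritic cell markers were higher and 3 lower, 3 platelet markers higher, 6 plasma cell markers lower and 3 T cell markers higher. All 9 markers of dividing cells were higher in the former comparison and lower in the latter. Of all genes, 16.7% were called lower and 19.7% higher in the labelled B comparison. In the labelled T comparison the shares were 15.9% higher and 17.8% lower. Dendritic cell markers had array means of 6.00 to 6.28, 5.05 to 5.23, 5.25 to 5.35 and 5.72 to 5.91 log2 in the labelled resting B, activated B, resting T and activated T groups, the same order of groups as Slc40a1, and the part of dendritic cells in the 10 genes was not tested.

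**Figure D5:**
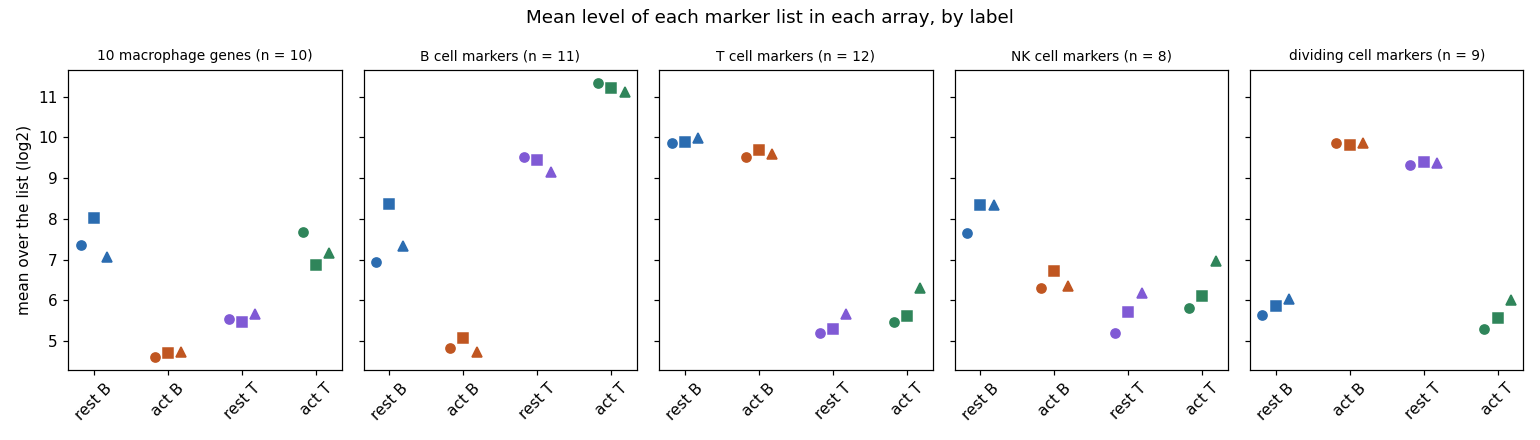
Mean RMA value (log2, vertical axis) over the 10 macrophage genes and over the markers of B cells, T cells, natural killer cells and dividing cells in each array, by labelled group, with symbols for replicates 1 or 4 (circle), 2 or 5 (square) and 3 or 6 (triangle). The arrays in which the 10 genes averaged 6.87 to 8.02 are those in which the markers of dividing cells averaged 5.31 to 6.03.

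The genes whose profile over the 12 arrays was most like the mean profile of the 10 were mostly outside the list of further macrophage genes. Among 3516 genes that were above the background in a group and whose group means spanned at least 1 log2, the 15 most alike had r between 0.96 and 0.98, as a description over arrays that share their groups. They were Jun, Crlf3, Plekha1, Klf2, Pdlim5, Btg2, 5031425E22Rik, Btg1, Pnpla7, Slc35a5, Sirpa, Tyrobp, Spic, Rnf167 and Gm4759. Sirpa, Tyrobp and Spic are on that list, to which 15 (0.427%) of the 3516 genes belonged. Jun, a factor of the AP-1 family, had means of 10.6, 7.13, 8.70 and 10.5 log2 in the labelled resting B, activated B, resting T and activated T groups, and Klf2, a factor of resting lymphocytes, had means of 9.98, 7.24, 8.09 and 9.63. Within groups the likeness held less well. The deviations of Spic from its group means followed those of the 10 genes with r = 0.91, those of Jun with 0.84 and those of Sirpa with 0.79, but those of Klf2 with 0.26 and those of Btg2 with 0.36.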

How the data were processed

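Total RNA of sorted or cultured spleen cells was hybridised to 12 Affymetrix whole-transcript arrays. The files deposited by the authors hold a log2 value for each probe set on each array, made with RMA according to the submitters' processing notes. RMA corrects background, brings arrays to 1 distribution and summarizes probes, so a shift of most genes cannot be seen, and low values are compressed. Its version is not given in the sources used here. Array medians lay between 5.50 and 5.68 log2, and 3 arrays per group limit the precision.

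Of 34760 probe sets, 21640 carried 1 gene symbol, 1321 several (not used) and 11799 no gene named here. The identifiers of 21553 were in the RefSeq gene table, which changed 0 symbols. The probe set with the highest mean was taken for the 954 genes with more than 1. The fit used limma 3.58.1 (R 4.3.3), with 4 group means and 1 variance per gene (8 residual and 7.8 prior degrees of freedom), and p-values were adjusted by Benjamini-Hochberg over 19937 genes, with calls under 0.05. The interaction is the labelled B difference minus the labelled T difference. A fold against a group with all arrays below the background (the 95th percentile of olfactory receptor genes) is a lower bound, taken against that level. The limma fit was tried on simulated data for a single comparison. Python 3.11.15, pandas 2.3.3, numpy 2.4.6, matplotlib 3.10.9 and biopython 1.88 made tables, figures and alignments.

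The 10 genes and all lists were chosen with earlier results of these data known. Named from each list were its leading measured genes, up to 5 called genes with the largest changes in either direction of a comparison, Lyz1, and the 15 genes most like the 10, though not every such gene is printed. Mertk, Marco, Siglec1, Vsig4 and the genes of the closing observations were named after their values were seen.

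Over 12867 genes, same-numbered arrays deviated from their group means with correlations of -0.05, 0.05 and 0.23 in the labelled B groups and 0.21, 0.14 and 0.22 in the labelled T groups. Arrays of different numbers had correlations of at most 0.14 in the labelled B and 0.02 in the labelled T groups. Whether the numbers mark shared animals is not stated in the sources. Alternatives were other centrings and normalizations, a filter on dim genes, other choices of probe set, other variance settings, a fit blocked by replicate number, and omission of any 1 array. Some loci are not analysed here.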

Additional observations from a re-analysis of the deposited data

Results flagged for a closer look

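The activated minus resting difference ran in opposite directions in the labelled B and labelled T groups for 8 of the 10 genes, with every array of each activated group on its own side of the resting group. The labelled B difference minus the labelled T difference was -9.59 ± 0.49 log2 (SE) for Slc40a1, -6.16 ± 0.39 for Vcam1, -5.36 ± 0.45 for Lyz2, -4.49 ± 0.32 for Csf1r, -3.98 ± 0.35 for C1qc, -3.04 ± 0.40 for C1qa, -2.62 ± 0.28 for C1qb and -1.79 ± 0.37 for Hmox1. Every array of both low groups was below the background for Slc40a1, Vcam1 and C1qc, and of the labelled activated B group for Lyz2 and C1qb, so that their values above are of measured signals. With the low groups held at the background the size was at least 6.55 log2 for Slc40a1, 5.26 for Vcam1, 4.53 for Lyz2, 2.27 for C1qb and 2.14 for C1qc. Since these genes were picked with their levels known, the difference was not tested for them. All 9 markers of dividing cells turned between the comparisons too, higher in the labelled activated B and lower in the labelled activated T group. Their array means were 9.81 to 9.87 and 9.31 to 9.40 log2 in the labelled activated B and resting T groups, where these 8 genes were lower. In the labelled resting B and activated T groups they were 5.65 to 6.03 and 5.31 to 6.01. The part of cell division in the levels was not tested.

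Among the listed genes the same difference passed limma's interaction test for Tyrobp at -4.67 ± 0.25 (adjusted p = 1.31e-10), Spic at -4.29 ± 0.33 (adjusted p = 1.24e-08), Mrc1 at -3.81 ± 0.41 (adjusted p = 6.1e-07), Fcer1g at -3.66 ± 0.29 (adjusted p = 1.92e-08) and Apoe at -3.54 ± 0.18 (adjusted p = 5.56e-11). In iron handling it was -3.70 ± 0.37 for Trf (adjusted p = 2.47e-07) and -2.87 ± 0.45 for Cd163 (adjusted p = 4.86e-05). It had the other sign for Tfrc at 4.26 ± 0.15 (adjusted p = 6.56e-13), Slc39a8 at 2.55 ± 0.13 (adjusted p = 5.12e-11), Slc48a1 at 2.50 ± 0.14 (adjusted p = 2.64e-10) and Maf at 2.29 ± 0.20 (adjusted p = 6.44e-08). Tyrobp, Spic, Mrc1, Fcer1g, Apoe, Trf and Cd163 fell in the labelled B comparison and rose in the labelled T comparison, with both low groups below the background for Spic, Mrc1 and Cd163 (sizes of at least 2.47, 2.25 and 0.66 log2), and Tfrc, Slc39a8 and Slc48a1 did the reverse. For Cd163 only 1 of 3 labelled activated T arrays was above the background. The lineage genes went against the labels of all 4 groups, so the direction of every value here is that of the labels. The lists too were chosen with earlier results of these data known, so these p-values are no independent test.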

How the results depend on the processing

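Under the alternatives tried, the median differences of the 10 genes and the counts of further macrophage genes called, 218 values in all, moved by less than the limits set (1 SD between arrays for a median, 1.5 times for a count). The median between the labelled resting B and activated T groups, which overlapped, turned from 0.22 to as low as -0.05 log2 when 1 array was left out. The median labelled B difference of the 10 genes lay between -2.40 and -2.27 log2 under other settings and between -2.52 and -2.07 without 1 array, and the labelled T median between 1.28 and 1.39 and between 1.18 and 1.5. With the replicate number as a block, 23 in place of 26 further macrophage genes were called in the labelled B comparison, 22 in place of 20 in the labelled T comparison and 25 in place of 26 by the interaction. In that labelled T fit Cd68 was called lower (-0.35 log2, limma, adjusted p = 0.0364). Of 2978 values of single genes and directions, 10 moved beyond the limits (1 SD between arrays for the difference of a gene, 1.5 times for a count). A further 13 lost their call, 9 of them for Axl in the labelled B comparison (limma, adjusted p = 0.0462, up to 0.205 without labelled resting B replicate 3). A call was gained by 1, and 0 called values reversed. The interaction call of Cebpb is not among these values. The 2 further macrophage genes with a positive interaction became 1 (Maf) with centring on the 75th percentile and with quantile normalization, where Cebpb had adjusted p = 0.252 and 0.207. Centring on the 75th percentile moved the median of all genes by -0.10 log2 in the labelled B and -0.18 in the interaction comparison, and the percentage of called genes that were higher from 54.1% to 41.9% and from 51.2% to 38.1%. In the comparison of the labelled activated groups that share moved from 53.5% to 39.2%. RMA values give no absolute level, and genes at the background have only a bound.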

Other observations

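Genes that followed the 10 within the labelled groups were looked for after the values were seen, by the correlation of their deviations from the group means over 12 arrays, as a description with no test. Of the 15 with the highest r (0.88 to 0.93, among 3516 genes), 3 were on the list of further macrophage genes (Spic, Mrc1 and Cd163) and 0 on the lists of T, B or natural killer cell markers. Of the 3516 genes, 15 (0.427%) were on the former list and 31 (0.882%) on the latter. Adgre4, the macrophage receptor EMR4, a relative of F4/80, had r = 0.93 and group means of 5.58, 3.29, 3.25 and 5.39 log2 in the labelled resting B, activated B, resting T and activated T groups. Clec4n, the lectin dectin-2, had means of 5.41, 3.5, 4.2 and 5.24 and Hpgd, an enzyme that degrades prostaglandins, 5.70, 3.95, 3.87 and 5.58. Fcna, the macrophage lectin ficolin-A, had 6.73, 5.85, 5.67 and 6.68. Lpcat2, with the highest r of 0.93, was highest in the labelled activated T group at 7.71, beside 6.07, 4.80 and 5.43 in the others. Tlr4, Fgd2 and Fam43a also followed the 10 genes within groups (r = 0.89, 0.90 and 0.91), with their highest means in the labelled activated T group.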
